A study of Mus musculus with 12 samples.

Results

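Mice have 6 actin genes: Acta1 and Actc1 encode the alpha-actins of skeletal and cardiac muscle, Acta2 and Actg2 the alpha- and gamma-actins of smooth muscle, and Actb and Actg1 the beta- and gamma-actins of the cytoplasm. These 6 genes, of 38481 to which the deposited transcript identifiers could be assigned with GENCODE M21, were followed across 12 RNA libraries from C2C12, an established line of mouse skeletal muscle precursors (myoblasts), which fuse into multinucleate myotubes when they differentiate. Transcript counts were summed per gene. Every culture received an siRNA for 3 days and then a drug or its solvent for 12 h. The 4 groups of 3 libraries crossed an siRNA to Crebl2, a bZIP transcription factor, or to Renilla luciferase (Luc, a control with no mouse target) with 20 nM rapamycin, an inhibitor of the kinase complex mTORC1, or ethanol. A single siRNA to Crebl2 was used in these libraries, so its effects and those of Crebl2 loss cannot be told apart. The cells were kept in growth medium with serum. Whether the 3 libraries of a group came from separate cultures is not given in the sources used here, and p-values measure only the spread between them.

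Actin monomers assemble into filaments that carry contraction in sarcomeres and shape and movement in other cells. The proteins encoded by the 6 genes are nearly identical, and the genes are told apart mainly by where they are expressed. Proliferating myoblasts make mostly cytoplasmic actins together with Acta2, and the sarcomeric alpha-actins are induced as myoblasts leave the cell cycle and differentiate, Actc1 early and Acta1 as the main form of mature skeletal muscle. Most actin genes are targets of serum response factor (SRF), which binds the CArG box. Its coactivators of the MRTF family are held by actin monomers, so that actin genes respond to the actin pool itself.

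The stretches upstream of the sarcomeric actin genes are shown because these genes fell together in the results and carry the SRF motif near their starts. They are the bases from 250 before the RefSeq start site that lie outside annotated exons (RefSeq table on GRCm38.p6), written 5′ to 3′ on the minus strand, on which all 6 genes lie. They cover chr8:123894776-123895025 for Acta1 and chr2:114052888-114053125 for Actc1. Capitals mark CArG boxes (CC, then 6 bases of A or T, then GG) and matches to that pattern with 1 letter other than A or T in the centre.
Acta1: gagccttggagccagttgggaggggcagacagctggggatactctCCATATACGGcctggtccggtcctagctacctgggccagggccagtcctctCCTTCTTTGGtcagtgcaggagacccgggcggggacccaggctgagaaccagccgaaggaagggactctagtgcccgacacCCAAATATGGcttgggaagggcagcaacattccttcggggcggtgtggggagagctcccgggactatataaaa
Actc1: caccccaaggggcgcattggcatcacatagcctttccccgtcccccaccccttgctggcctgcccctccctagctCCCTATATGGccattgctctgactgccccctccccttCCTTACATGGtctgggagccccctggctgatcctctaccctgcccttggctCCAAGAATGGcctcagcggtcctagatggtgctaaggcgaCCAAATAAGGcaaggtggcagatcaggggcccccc
Counted from the start site, where -1 is the base before it, the full CArG pattern began at -73 in Acta1 and at -47 in Actc1. Matches with 1 other letter began at -205 and -154 in Acta1 and at -175, -138 and -87 in Actc1. Acta2 held no full match in its 250 bases. Its matches with 1 other letter began at -84 and -34, inside the first exon that GENCODE M21 annotates, and are shown with 10 flanking bases on either side (chr19:34255438-34255467 and chr19:34255388-34255417).
Acta2, first match: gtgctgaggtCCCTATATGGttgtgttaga
Acta2, second match: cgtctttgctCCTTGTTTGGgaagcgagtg
Actg1 held a full match that began at -90. Actb and Actg2 had no entry among the RefSeq promoters used here, so they were not searched for any of these motifs. Of 32851 RefSeq promoters searched over the same 250 bases, on both strands, 1.47% held a full CArG box and 7.24% a match with 1 other letter. An E-box (CANNTG, the motif of MyoD family factors) was found upstream of Acta1, Acta2 and Actg1 and in 66.2% of all promoters. The MCAT motif of TEAD factors (CATTCC) was found upstream of Acta1 and Acta2 and in 12.6% of all promoters. These matches describe letters in a window, and no binding was measured.

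The first 30 coding bases are shown to let the likeness of the 3 alpha-actin genes be seen. They are at chr8:123893668-123893697 for Acta1, chr2:114052002-114052031 for Actc1 and chr19:34252524-34252553 for Acta2 (GRCm38, minus strand), and capitals mark bases that differ from Acta1.
Acta1: atgtgcgacgaagacgagaccaccgctctt
Actc1: atgtgTgacgaCgaGgagaccaccgctTtG
Acta2: atgtgTgaAgaGgaAgaCaGcacAgcCctG
Actc1 differed from Acta1 at 5 of these 30 bases and Acta2 at 9. Over whole coding sequences, Acta1 was identical to Actc1 at 86.3% of aligned bases and to Acta2 at 85.4%. The most alike of the 15 pairs was Actb with Actg1, at 88.6%, and the least alike was Acta2 with Actg1, at 81.5%.

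Of the 6 genes, 4 were measured well enough to test, and Actg1 and Actg2 were not. The counts were made per transcript, so the bases that exactly 1 listed transcript covers on a strand were computed and are called countable. Acta1 (chr8:123891769-123894751, 1446 exonic bases), Actc1 (chr2:114047282-114053548, 1473 bases) and Acta2 (chr19:34241090-34255590, 2035 bases) each had 1 listed transcript and were countable throughout. Actb (chr5:142903115-142906754) had 678 of 1920 exonic bases countable, in a stretch of 386 bases at the 3′ end, 240 bases of a coding exon and 52 bases at the 5′ end. All 638314 Actb reads of the 12 libraries were assigned to 1 of its 2 listed transcripts, and the transcript without countable bases had 0.

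**Figure D1:**
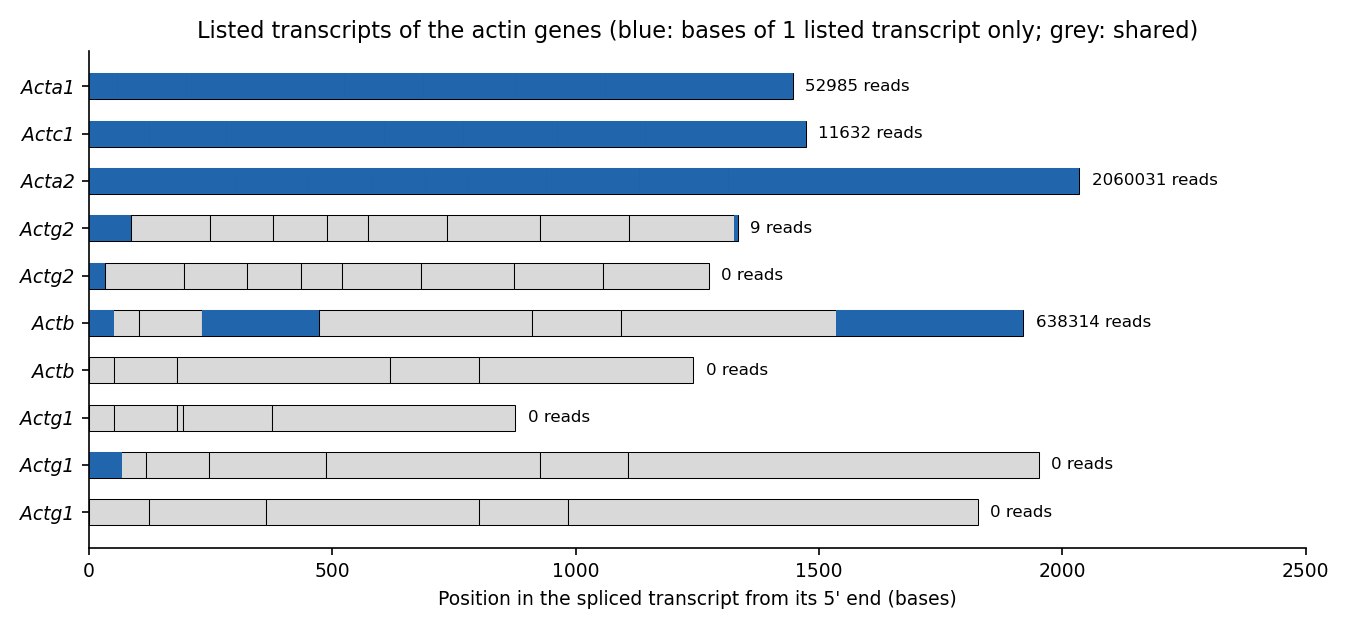
Map of the 10 listed transcripts of the 6 actin genes, with exonic bases drawn to scale from the 5′ end along the horizontal axis. Blue marks bases that only 1 listed transcript covers, grey marks shared bases, and the number at the right of each bar is its read total over 12 libraries. Transcripts with few or no blue bases have 0 or nearly 0 reads.

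Actg1 (chr11:120345690-120348542) had 0 reads in all 12 libraries over its 3 listed transcripts. Only 68 of its 1952 exonic bases were countable, in stretches of 67 bases and 1 base. A count of 0 allows up to 3 reads, or 0.07 to 0.0898 counts-per-million (CPM), for those few bases only. The listing at 0 gives no measure of how much Actg1 RNA the cells held. Countable bases do not account for every count, since Synpo2 (0.0% countable) had means of 9.05 to 27.1 CPM and Diaph3 (0.1% countable) a mean of 13.7 CPM, and the authors' rule for shared reads is not given in the sources used here. Actg2 (chr6:83512905-83536265) had 126 of 1366 exonic bases countable, outside the coding sequence, and 9 reads in all. Its counts in replicates 1, 2 and 3 were 1, 0 and 3 with Luc siRNA in ethanol, 0, 1 and 1 with Luc siRNA in rapamycin, 1, 1 and 1 with Crebl2 siRNA in ethanol, and 0, 0 and 0 with Crebl2 siRNA in rapamycin. No library was above the 3 reads that a count of 0 allows, and neither gene passed the filter on low counts.

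The 12 libraries held 33404087 to 42891015 counts each. The biological coefficient of variation common to all genes was 6.9%. Crebl2 itself checked the labels, at a mean of 25.1 and 37.5 CPM in ethanol and rapamycin with Luc siRNA and of 6.1 and 9.7 with Crebl2 siRNA. Of 9 listed myoblast markers, Myod1 and Des were abundant in all groups, at means of 190.3 to 257.7 and 1472.0 to 1549.9 CPM. The 9 summed to 5347.1 to 5669.4 CPM with Luc siRNA in ethanol and 4319.9 to 4607.0 with Luc siRNA in rapamycin. With Crebl2 siRNA they summed to 5210.6 to 5760.8 CPM in ethanol and 5131.7 to 5318.4 in rapamycin. With rapamycin and Luc siRNA, mean Itga7 fell from 1320.4 to 751.0 CPM, Cdh15 from 859.3 to 492.5 and Chrna1 from 992.2 to 658.1, and Vim rose from 359.3 to 640.4. Endothelial markers summed to at most 0.27 and blood cell markers to at most 0.623 CPM in any library. Levels below are in CPM, scaled between libraries by edgeR's trimmed mean of M values (TMM). A gene is called changed where edgeR's quasi-likelihood test gave an adjusted p (Benjamini-Hochberg over all 13247 genes tested) under 0.05. Log2 differences are edgeR's, with their standard error (SE).

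Acta1, the skeletal alpha-actin, was highest in control cells and stepped down with each treatment. With Luc siRNA in ethanol, its 3 libraries were at 322.0, 304.0 and 235.9 CPM (287.3 ± 45.4, mean ± SD, n = 3). Rapamycin with Luc siRNA gave 112.7, 93.41 and 102.3 CPM (102.8 ± 9.64). Crebl2 siRNA gave 35.39, 32.71 and 39.43 CPM in ethanol (35.8 ± 3.38) and 25.79, 26.58 and 31.87 CPM in rapamycin (28.1 ± 3.31). The 4 groups did not overlap, although the lowest library with Crebl2 siRNA in ethanol lay just above the highest in rapamycin.

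Actc1, the cardiac alpha-actin that skeletal myoblasts express as they begin to differentiate, followed the same order at a lower level. Its control libraries were at 79.15, 77.45 and 61.32 CPM (72.6 ± 9.84, n = 3). With Luc siRNA and rapamycin they were at 18.02, 13.88 and 17.86 CPM (16.6 ± 2.35). Crebl2 siRNA left 6.349, 6.062 and 6.4 CPM in ethanol (6.27 ± 0.182) and 2.921, 3.859 and 3.619 CPM in rapamycin (3.47 ± 0.487). The 4 groups were separate, and the lowest still rested on 110 to 133 reads per library.

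Acta2, the smooth muscle alpha-actin, was the most heavily counted of the actin genes and moved the opposite way. Control libraries were at 3277.4, 2984.0 and 3202.8 CPM (3154.7 ± 152.5, n = 3), or 0.329% of all counts on average. Crebl2 siRNA in ethanol gave 3932.3, 3655.0 and 3969.6 CPM (3852.3 ± 171.9), and rapamycin with Luc siRNA gave 4635.7, 4786.2 and 4647.8 CPM (4689.9 ± 83.6). Both treatments together gave 6773.1, 6693.9 and 7064.1 CPM (6843.7 ± 194.9), or 0.66% of all counts. The 4 groups did not overlap, and rapamycin alone gave a higher Acta2 level than Crebl2 siRNA alone, whereas the Acta1 level was further from control with Crebl2 siRNA alone.

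Actb, the cytoplasmic beta-actin often used as a reference transcript, varied least. It was at 1356.3, 1185.3 and 1281.1 CPM with Luc siRNA in ethanol (1274.2 ± 85.7, n = 3) and at 1384.4, 1467.9 and 1321.6 CPM in rapamycin (1391.3 ± 73.4). With Crebl2 siRNA it was at 1605.5, 1407.1 and 1549.4 CPM in ethanol (1520.7 ± 102.3) and at 1450.2, 1560.2 and 1456.9 CPM in rapamycin (1489.1 ± 61.6). Of the 4 pairs of groups compared, only Crebl2 and Luc siRNA in ethanol did not overlap. Of the 50-base words in the countable bases of Actb, 17.1% also occur in transcripts of other genes, against 2.22% for Acta1, 0.352% for Acta2 and 0 for Actc1. With 75-base words the shares were 0.628% for Actb, 0.437% for Acta1 and 0 for Acta2 and Actc1, and the read length is not given in the sources used here.

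**Figure D2:**
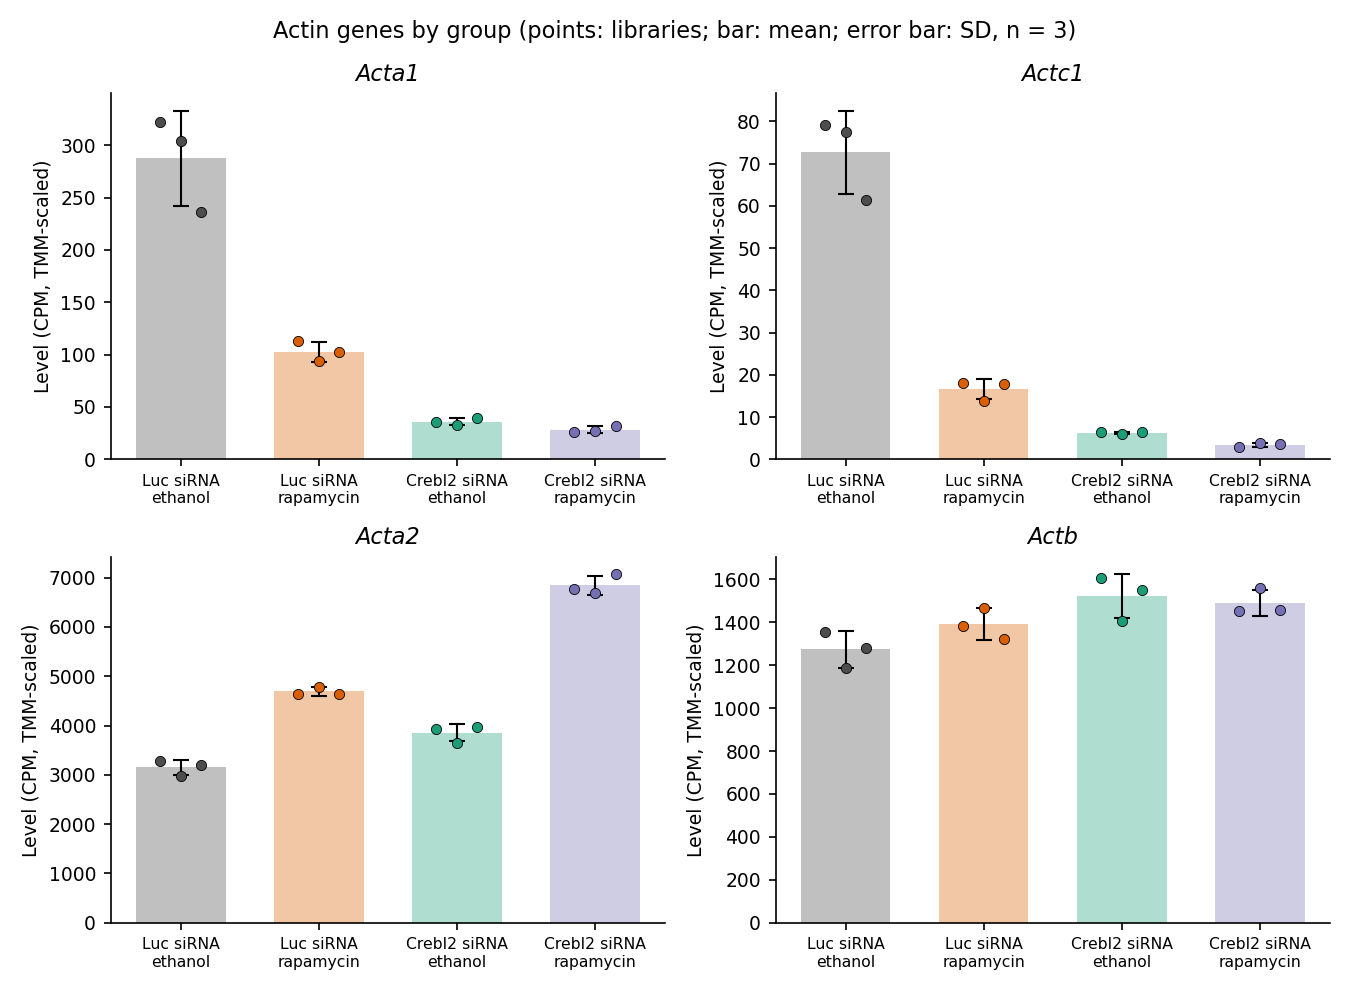
Level of Acta1, Actc1, Acta2 and Actb in CPM (vertical axes, a scale for each gene) by group. Points are libraries, columns group means and error bars the SD over 3 libraries. Acta1 falls from 287.3 to 28.1 CPM and Actc1 from 72.6 to 3.47 CPM across the groups, Acta2 rises from 3154.7 to 6843.7 CPM, and Actb stays between 1185.3 and 1605.5 CPM.

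The first comparison asked how the actin genes depend on Crebl2 without rapamycin. Both sarcomeric actins fell and both other testable actins rose slightly with Crebl2 siRNA, so 4 of 4 tested members were called, where 38.4% of all genes tested were called. Acta1 fell by 3.00 on the log2 scale (SE 0.12, 8.01-fold, edgeR adjusted p = 1.5e-10), and Actc1 fell by 3.53 (SE 0.12, 11.6-fold, edgeR adjusted p = 1.5e-10). They held ranks 18 and 5 from the lowest log2 difference among the 13247 genes. Acta2 rose by 0.29 (SE 0.05, 1.22-fold, edgeR adjusted p = 0.00015) and Actb by 0.26 (SE 0.06, 1.19-fold, edgeR adjusted p = 0.0037). For each of the 4 genes, the exact permutation test over libraries gave a two-sided p of 0.1, the smallest that 3 against 3 allows. In these bulk samples, fewer differentiating cells and less actin RNA per cell cannot be told apart.

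Rapamycin with Luc siRNA gave a like picture in a comparison that shares the control libraries with the first. Acta1, Actc1 and Acta2 were called, 3 of 4 members, where 41.1% of genes were called. Acta1 fell by 1.48 (SE 0.11, 2.8-fold, edgeR adjusted p = 2.7e-08) and Actc1 fell by 2.13 (SE 0.11, 4.39-fold, edgeR adjusted p = 6.4e-10) on the log2 scale. Acta2 rose by 0.57 (SE 0.05, 1.49-fold, edgeR adjusted p = 8.6e-08). The Actb difference was 0.13 (95% interval 0 to 0.26, edgeR adjusted p = 0.11) and was not called, but without replicate 1 of Luc siRNA in ethanol it was 0.17 with an edgeR adjusted p of 0.045.

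Under rapamycin, Crebl2 siRNA against Luc siRNA changed the same 3 genes, where 33.1% of genes were called. Acta1 fell by 1.87 (SE 0.12, 3.66-fold, edgeR adjusted p = 1.3e-08) and Actc1 fell by 2.26 (SE 0.14, 4.79-fold, edgeR adjusted p = 1.2e-08) on the log2 scale. Acta2 rose 1.46-fold (edgeR adjusted p = 3.6e-07). Actb differed by 0.10 (95% interval -0.03 to 0.23, edgeR adjusted p = 0.24) and was not called.

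With Crebl2 siRNA, where the sarcomeric actins were already low, rapamycin lowered them less and raised Acta2 1.78-fold (log2 0.83, SE 0.05, edgeR adjusted p = 1e-09). Again 3 of 4 members were called, where 45.3% of genes were called. Actc1 fell by 0.86 (SE 0.15, 1.82-fold, edgeR adjusted p = 0.00019) and Acta1 by 0.36 (SE 0.12, 1.28-fold, edgeR adjusted p = 0.021) on the log2 scale. The Acta1 call was lost without replicate 3 of Crebl2 siRNA in ethanol (edgeR adjusted p = 0.095) and without replicate 1 or 2 of Crebl2 siRNA in rapamycin (0.12 and 0.094). Actb was at a difference of -0.03 (95% interval -0.16 to 0.1, edgeR adjusted p = 0.72), and its sign turned under some alternatives.

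**Figure D3:**
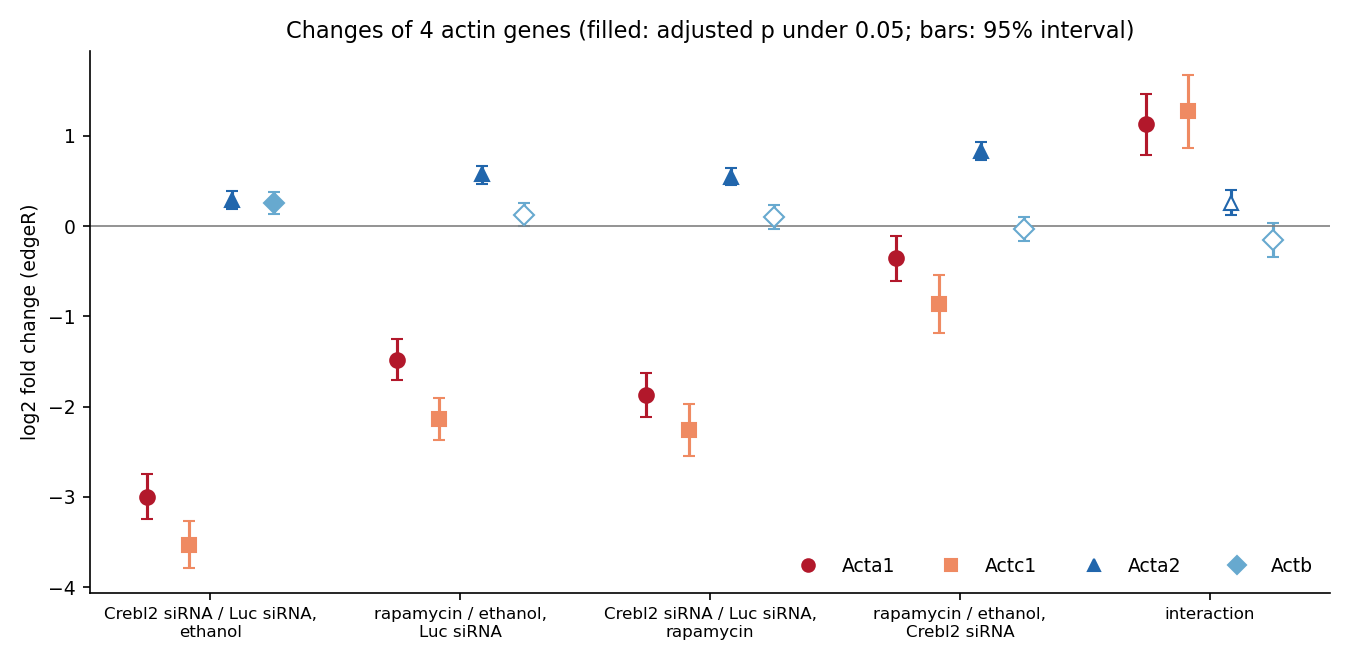
Log2 difference with its 95% interval (vertical axis) for the 4 tested actin genes in the 4 comparisons and the interaction (horizontal axis). Filled points have an edgeR adjusted p under 0.05 and open points do not. Acta1 and Actc1 lie below 0 in all 4 comparisons, from -3.00 to -0.36 and from -3.53 to -0.86, and Acta2 lies above 0, from 0.29 to 0.83.

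The rapamycin changes of the sarcomeric actins differed between the siRNAs. The interaction, which is the log2 rapamycin change with Crebl2 siRNA minus that with Luc siRNA, was 1.13 for Acta1 (SE 0.16, edgeR adjusted p = 0.0025) and 1.27 for Actc1 (SE 0.19, edgeR adjusted p = 0.0029). These were 2 of 4 members, where 1.2% of genes were called. For Acta2 it was 0.26 (SE 0.07, edgeR adjusted p = 0.069), not called in the fit reported here and called under several alternatives, among them DESeq2 (0.28, adjusted p = 0.0043) and no filter on low counts (0.31, edgeR adjusted p = 0.003). For Actb it was -0.16 (SE 0.09, edgeR adjusted p = 0.43) and was not called.

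The balance between actins moved with their levels. Levels were compared between genes per 1000 countable bases, and each ratio was taken within a library. Acta1 exceeded Actc1 4.02-fold in control cells, 5.81-fold with Crebl2 siRNA in ethanol, 6.34-fold with rapamycin and Luc siRNA, and 8.27-fold with both. On the log2 scale the ratio was 2.01 ± 0.04, 2.54 ± 0.1, 2.66 ± 0.12 and 3.05 ± 0.21 in the same order (SD, n = 3), so Actc1 fell further than Acta1 each time. Acta2 exceeded Acta1 7.87-fold in control cells, 32.5-fold with rapamycin, 76.5-fold with Crebl2 siRNA and 173.9-fold with both. The sum of Acta1 and Actc1 over Actb dropped from a log2 ratio of -2.93 ± 0.25 in control cells to -4.64 ± 0.2 with rapamycin, -6.27 ± 0.09 with Crebl2 siRNA and -6.66 ± 0.18 with both. For these 3 ratios the groups were separate in each of the 4 comparisons, with an exact permutation p of 0.1 in all 12 tests, the smallest possible, which adjustment over the 12 leaves at 0.1.

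**Figure D4:**
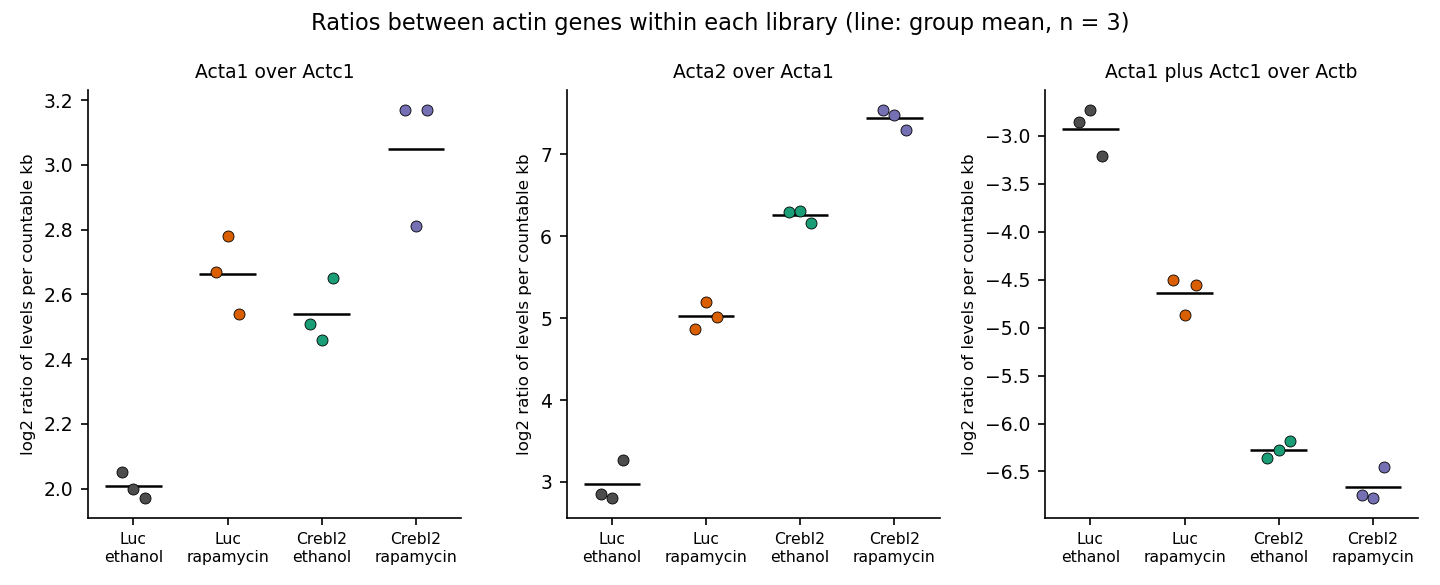
Log2 ratios between actin genes per 1000 countable bases (vertical axes) by group, 1 panel for each ratio. Points are libraries and lines the group means over 3 libraries. Acta1 over Actc1 climbs from 2.01 to 3.05 and Acta2 over Acta1 from 2.98 to 7.44, and Acta1 plus Actc1 over Actb drops from -2.93 to -6.66.

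Per 1000 countable bases, the order of the 4 measured genes in control cells was Actb at 1879.4, Acta2 at 1550.2, Acta1 at 198.7 and Actc1 at 49.3 CPM. Acta2 overtook Actb in rapamycin, at 2304.6 against 2052.0 with Luc siRNA and at 3363.0 against 2196.3 with Crebl2 siRNA. Of the summed level of the 4 genes, Acta2 made up 42.2% ± 0.739 in control cells and 60.3% ± 1.48 with both treatments, Actb 51.1% ± 0.7 and 39.4% ± 1.5, Acta1 5.41% ± 0.846 and 0.348% ± 0.0371, and Actc1 1.34% ± 0.192 and 0.0421% ± 0.00541 (SD, n = 3). The order of Acta2 and Actb rests on the countable length of Actb. Per annotated exonic length, Acta2 was 63.0% and Actb 26.9% of the sum in control cells, and Acta2 led in every group. Actg1 and Actg2 are left out of these sums.

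Across the 12 libraries, Acta1 and Actc1 were each the nearest gene of the other among 7115 genes compared (Pearson r of log2 CPM 0.991). Next to Acta1 stood Coro2b, of the coronin family of actin-binding proteins (0.988), and Tnnc1, the slow skeletal and cardiac troponin C (0.986). Among the genes nearest to Actc1 was also Klhl41, which encodes a Kelch protein of striated muscle (0.984). Acta2 was nearest to Tmem44 (0.992) and the ribosomal protein genes Rps7 and Rpl17 (both 0.99). Actb was nearest to Tkt, the transketolase gene (0.958), then Ddx54, an RNA helicase (0.941), and Cdsn, the corneodesmosin gene (0.94). Acta1 and Acta2 had an r of -0.71 and Acta2 and Actb of 0.531. These 12 libraries fall into 4 groups and share their depth scaling, so the values mainly describe the group means.

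Genes that regulate, fold and bind actin were followed as lists, with members outside the naming rule named after their values were seen. Among 16 tested regulators of actin genes, 4 rose and 5 fell with Crebl2 siRNA in ethanol, and 1 rose and 3 fell with rapamycin and Luc siRNA. Over all genes, 2836 rose and 2246 fell in the first comparison and 2581 rose and 2860 fell in the second. Myog, the myogenin gene and a driver of muscle differentiation, fell with the sarcomeric actins, from a mean of 203.1 CPM in control cells to 74.5 with rapamycin, 20.1 with Crebl2 siRNA and 8.96 with both. Its log2 differences were -3.33 with Crebl2 siRNA (SE 0.15, edgeR adjusted p = 7.4e-10) and -1.45 with rapamycin (SE 0.14, edgeR adjusted p = 5.9e-07). Elk3, a partner of SRF, rose by 0.31 with Crebl2 siRNA (edgeR adjusted p = 8.3e-05). Also among the genes called with Crebl2 siRNA were Mef2a, Myod1 and Myf5, lower, and Mrtfa, Six4 and Tead4, higher. Mrtfa was at a mean of only 0.353 CPM with 7.1% of its exonic bases countable, and Mef2a had 14.0% countable. The Tead4 call was lost with no count filter (edgeR adjusted p = 0.25), with library totals in place of TMM (0.22), with only the compared groups (0.11) and when any library was left out except replicate 2 of either siRNA in ethanol (0.061 to 0.11). With rapamycin Tead4 and Mef2a fell and Tead2 rose, and the Mef2a call was lost without replicate 1 or 3 of Luc siRNA in ethanol or replicate 2 or 3 of Luc siRNA in rapamycin (edgeR adjusted p from 0.055 to 0.11). Srf differed by -0.08 and 0.07 in these comparisons and was called in neither (edgeR adjusted p = 0.46 and 0.51).

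Contractile and cytoskeletal targets of SRF other than actins had more members higher than lower. Of 18 tested, 8 rose and 3 fell with Crebl2 siRNA in ethanol, 10 rose and 1 fell with rapamycin and Luc siRNA, 13 rose and 1 fell with Crebl2 siRNA in rapamycin, and 15 rose and 1 fell with rapamycin and Crebl2 siRNA. The called shares were 61.1%, 61.1%, 77.8% and 88.9%, against 38.4%, 41.1%, 33.1% and 45.3% of all genes. Their median log2 differences were 0.23, 0.37, 0.28 and 0.71, against 0.01, 0.02, -0.01 and -0.01 over all genes. Tagln, which encodes the smooth muscle protein transgelin, rose from 96.6 ± 6.74 CPM in control cells to 224.9 ± 9.21 with Crebl2 siRNA, 209.5 ± 3.97 with rapamycin and 608.5 ± 35.2 with both (SD, n = 3). Its log2 differences were 1.22 and 1.12 for the single treatments (edgeR adjusted p = 9.4e-10 and 6.1e-10). Cnn1, the basic calponin of smooth muscle, rose by 1.14 with Crebl2 siRNA (edgeR adjusted p = 1.2e-06), and Cnn2, a calponin of many cell types, rose by 0.63 with rapamycin (edgeR adjusted p = 9.9e-09). Tagln2, a transgelin of non-muscle cells, went both ways, by 0.66 with Crebl2 siRNA and by -0.35 with rapamycin (edgeR adjusted p = 2.1e-07 and 6.8e-05). Besides Tagln2, the called members that fell were Ccn1, Myl9 and Filip1l with Crebl2 siRNA in ethanol. In rapamycin Filip1l, at a mean of only 0.439 CPM, fell again with Crebl2 siRNA. Ccn1 and Myl9 rose there by 0.15 and 0.2 (edgeR adjusted p = 0.025 and 0.038). This Ccn1 call was lost with library totals (edgeR adjusted p = 0.17), with the replicate block (0.051) and without replicate 3 of Luc siRNA in rapamycin (0.053). In the interaction 3 of 18 were called, namely Tpm2, Ccn1 and Cnn2, all positive, where 1.2% of all genes were called. Tpm2 had only 8.7% of its exonic bases countable and is also listed among the thin filament partners below. The Cnn2 interaction was lost without any replicate of either siRNA in ethanol, or without replicate 3 of either in rapamycin (edgeR adjusted p from 0.05 to 0.12).

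Partners of actin in the striated thin filament followed Acta1 and Actc1 in part. With Crebl2 siRNA in ethanol 5 of 10 tested fell (Neb, Lmod2, Tnnc1, Lmod3 and Tmod1) and 1 rose (Xirp1). Neb was at a mean of only 0.734 CPM with 10.1% of its exonic bases countable, and Lmod2 at a mean of 2.77 CPM. With rapamycin and Luc siRNA 7 of 10 fell and 0 rose. With Crebl2 siRNA in rapamycin 4 fell (Neb, Lmod2, Lmod3 and Tnnc1) and 3 rose (Actn3, by 1.02, Tpm2 and Tpm1). With rapamycin and Crebl2 siRNA 4 fell (Xirp1, Lmod2, Tmod1 and Actn3) and 2 rose (Tpm2 and Tpm1). The called shares were 60.0%, 70.0%, 70.0% and 60.0%, against 38.4%, 41.1%, 33.1% and 45.3% of all genes. The median log2 differences were -0.77, -0.97, -0.14 and -0.25 in the same order. The last Actn3 call was lost without replicate 3 of Crebl2 siRNA in ethanol (edgeR adjusted p = 0.077) and without replicate 1 or 3 of Crebl2 siRNA in rapamycin (0.17 and 0.078). The rise of Xirp1 was not called with library totals (edgeR adjusted p = 0.082), without replicate 3 of Luc siRNA in ethanol (0.075) or without replicate 1 of Crebl2 siRNA in ethanol (0.11). Tnnc1 fell by 1.91 with Crebl2 siRNA (SE 0.11, edgeR adjusted p = 8.6e-09), Lmod3, a nucleator of thin filaments, by 1.84 (SE 0.13, edgeR adjusted p = 4.2e-08) and Tmod1, which caps their pointed ends, by 1.34 (SE 0.11, edgeR adjusted p = 1.5e-07). With rapamycin Tmod1 fell by 1.62 (SE 0.11, edgeR adjusted p = 1e-08), Actn3, the alpha-actinin of fast fibres, by 1.18 (SE 0.06, edgeR adjusted p = 8.6e-10) and Xirp1, an actin-binding Xin repeat protein, fell by 1.1 (SE 0.11, edgeR adjusted p = 6.8e-07). In the interaction 4 of 10 were called, Tmod1, Actn3, Tnnc1 and Tpm2, all positive, where 1.2% of all genes were called. Tmod1, Actn3 and Tnnc1 fell with rapamycin and Luc siRNA, as Acta1 and Actc1 did. Tpm2 differed there by only 0.08 (edgeR adjusted p = 0.58) and rose by 0.84 with rapamycin and Crebl2 siRNA. Tpm1 and Tpm2 are also listed as SRF targets. The other 9 listed partners, among them most troponin genes, did not pass the count filter.

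**Figure D5:**
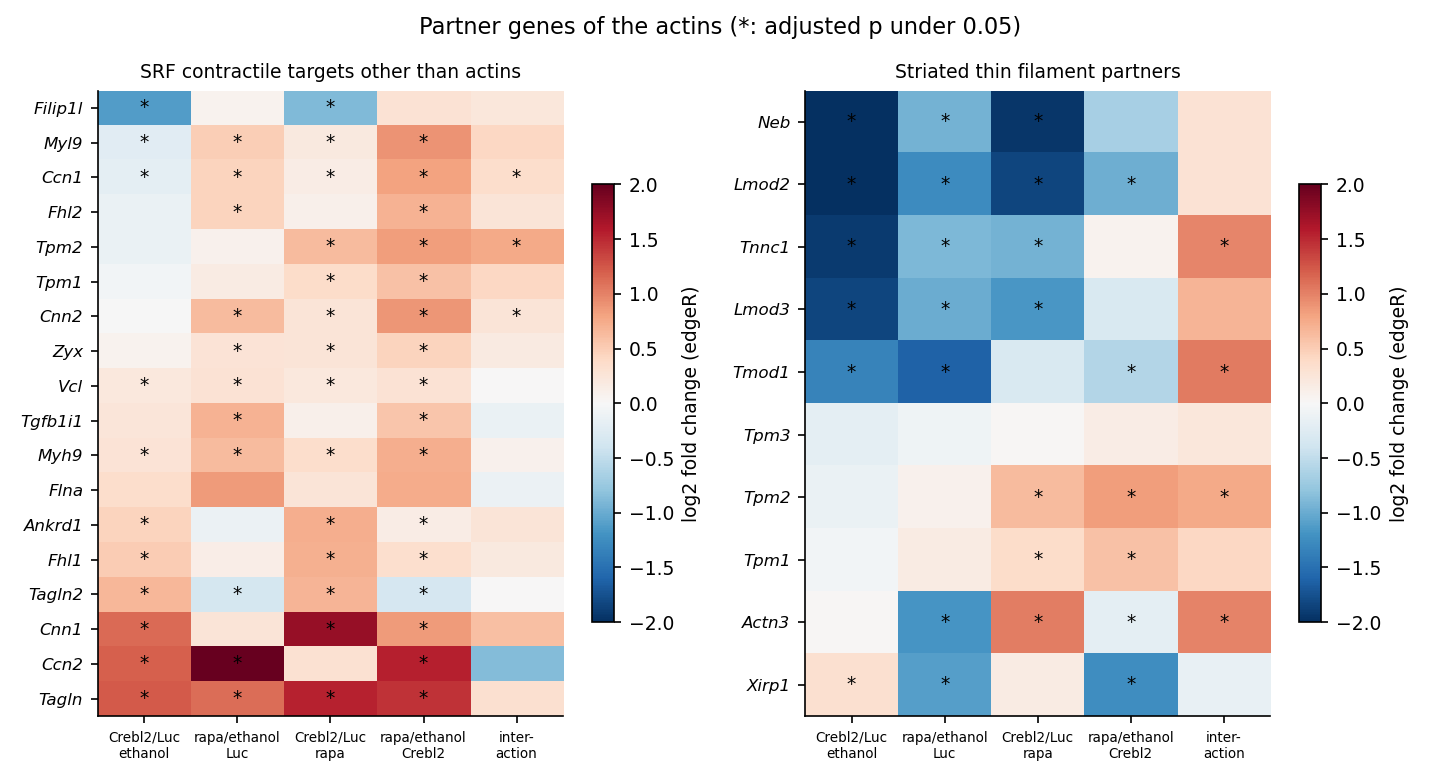
Heat map of log2 differences for SRF contractile targets and striated thin filament partners (rows) in the 4 comparisons and the interaction (columns), with colour limited to -2 to 2 and * for an edgeR adjusted p under 0.05. SRF targets such as Tagln are mostly coloured as higher and thin filament partners such as Tnnc1, Lmod3 and Tmod1 as lower. The column for the interaction is positive for Tnnc1, Lmod3 and Tmod1, with * for Tnnc1 and Tmod1 only. It is negative for Xirp1 (-0.15).

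Of 15 tested genes that fold and process actin, mostly subunits of the CCT chaperonin and its helper prefoldin, 9 rose, 0 fell and 6 were not called with Crebl2 siRNA in ethanol, where 38.4% of all genes were called. In rapamycin the counts were again 9, 0 and 6, where 33.1% of all genes were called. The list's median log2 differences were 0.31 and 0.33, against 0.01 and -0.01 over all genes. Cct6a rose by 0.52, Cct2 by 0.43 and Cct5 by 0.36 with Crebl2 siRNA in ethanol (edgeR adjusted p = 8.4e-07, 1.4e-06 and 1e-05). Rapamycin with Luc siRNA gave 3 higher (Cct4, Naa80 and Cct2) and 5 lower (Vbp1, Cct6a, Cct8, Tcp1 and Cct7), where 41.1% of all genes were called, and Cct6a was at -0.44 (edgeR adjusted p = 2.4e-06). The Cct2 call with rapamycin was lost with no count filter (edgeR adjusted p = 0.39), with library totals (0.13), with only the compared groups (0.053) and when any library was left out except those of Crebl2 siRNA in ethanol (0.052 to 0.33).

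Genes for proteins that bind monomers and cap or sever filaments were mixed. Of 21 tested, 9 rose and 5 fell with Crebl2 siRNA in ethanol, and 4 rose and 6 fell with rapamycin and Luc siRNA. The called shares of this list were 66.7% and 47.6%, against 38.4% and 41.1% of all genes. Pfn1, the profilin that loads monomers onto growing ends, rose by 0.35 with Crebl2 siRNA and fell by 0.34 with rapamycin (edgeR adjusted p = 4.8e-05 and 4.1e-05). Coro1c, a coronin, rose by 0.46 with Crebl2 siRNA (edgeR adjusted p = 5.3e-06), and Capza1, a subunit of the capping protein, fell by 0.27 with rapamycin (edgeR adjusted p = 0.0006). Of 24 tested nucleation genes, 11 rose and 4 fell with Crebl2 siRNA, and 5 rose and 6 fell with rapamycin, or 62.5% and 45.8% called. The leiomodin genes split, with Lmod3 lower and Lmod1, the smooth muscle leiomodin, higher by 0.85 with Crebl2 siRNA (SE 0.1, edgeR adjusted p = 7.7e-06). The formin gene Daam2 fell by 0.90 with Crebl2 siRNA (edgeR adjusted p = 2.3e-07), and Diaph3 fell by 1.19 and Daam1 by 0.47 with rapamycin (edgeR adjusted p = 1.2e-05 and 1.1e-05). Diaph3 had only 0.1% of its exonic bases countable. Of 7 actin-related protein genes, 3 rose (Actl6a, Actr1a and Actr1b) and 1 fell (Actr8) with Crebl2 siRNA, and 0 rose and 3 fell (Actl6a, Actr6 and Actr1b) with rapamycin, or 57.1% and 42.9% called. For all 3 lists the share called with rapamycin was near that of all genes. The Actr1b calls were lost when single libraries were left out, replicate 2 of Luc siRNA in ethanol among them for the first (edgeR adjusted p = 0.083) and replicate 1 or 3 of that group for the second (0.053 and 0.061). Its call with Crebl2 siRNA was also lost with library totals (edgeR adjusted p = 0.21), no count filter (0.062) and only the compared groups (0.089). Actl6a, a subunit of chromatin remodelling complexes, was higher by 0.42 in the first and lower by 0.56 in the second (edgeR adjusted p = 3.9e-06 and 1.1e-07).

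The summed level of markers of differentiated striated muscle moved with Acta1 and Actc1. The 11 listed markers, 8 of which were tested, summed to 209.1 to 253.7 CPM with Luc siRNA in ethanol, 77.6 to 92.2 with Luc siRNA in rapamycin, 32.8 to 39.4 with Crebl2 siRNA in ethanol and 12.2 to 16.6 with Crebl2 siRNA in rapamycin. This is the order of the sarcomeric actins, and Myog carries most of it. Ttn, the titin gene, did not follow that order, at means of 9.96, 2.57, 10.5 and 3.59 CPM in the same group order. The part of differentiating cells in the actin result was not tested. The cardiac markers summed to 13.7 to 21.9 CPM in all groups, mostly from Nkx2-5, with Hand2 at 0 in every library and Nppa at no more than 0.0951 CPM. For Acta2, the 8 listed smooth muscle markers, 7 of which were tested, summed to 1580.8 to 1805.7, 1628.0 to 1862.3, 1632.1 to 1847.0 and 2177.5 to 2249.4 CPM in the same group order, mostly from Des, which skeletal myoblasts express as well. Of the 3 genes listed as defining smooth muscle, Myh11 was at no more than 0.584 CPM and Myocd at 0. Only 1.2% of the exonic bases of Myocd were countable. Lmod1, also of this set, rose. With Luc siRNA in rapamycin, Crebl2 siRNA in ethanol and both, Lmod1 was at means of 10.9, 14.8 and 25.3 CPM, against 8.21 in control cells. In the same order, Tagln was at 209.5, 224.9 and 608.5 CPM against 96.6, and Cnn1 at 5.04, 9.35 and 16.8 against 4.25. Smtn, a smooth muscle cytoskeletal gene with 14.4% of its exonic bases countable, was at 0.424, 0.285 and 0.152 CPM against 0.766. Synpo2, with 0.0% countable, was at 27.1, 9.05 and 23.4 CPM against 15. The part of smooth muscle-like cells in the Acta2 result was not tested.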

How the data were processed

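Total RNA was sequenced from stranded libraries, per the labels' protocols. The authors deposited whole-number read counts for 58611 Ensembl transcripts per library, without normalization. Trim Galore, TopHat and HTSeq and the builds mm9 and GRCm38 are named in the submitters' processing notes. Read length, annotation release, strand setting and the rule for shared reads are not given in the sources used here, and how reads that match more than 1 actin gene were assigned is uncertain. With GENCODE M21 (GRCm38), 58264 identifiers (99.41%) matched, and the other 347 held 0.038% of reads.

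Counts were summed per gene and tested with edgeR 4.0.16 (R 4.3.3) in a single fit of the 12 libraries with a mean per group, TMM scaling and a minimum count of 10 (filterByExpr), which left 13247 genes. DESeq2 1.42.0 was an alternative. The pipeline was tested on simulated data. Exact permutation tests (SciPy 1.17.1, two-sided) compared single values over libraries. Correlations used log2 of CPM plus 0.1. Coding sequences were aligned with Biopython 1.88. Groups came from the sample titles. Countable bases are those covered by exactly 1 listed transcript on a strand. A read that overlaps such a base only in part may also have been counted. The named genes were the actins, Crebl2, the 3 nearest protein-coding genes to each actin with a mean of at least 5 CPM, and from each list the 3 called genes of smallest p in either of the first 2 comparisons, with a mean of at least 5 CPM. Of the genes this rule named, 2 are not reported here. The actin genes and the lists were chosen with earlier results of these data known. A planned ratio of Actg1 to Actb could not be computed.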

Additional observations from a re-analysis of the deposited data

Results flagged for a closer look

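The rapamycin change of both sarcomeric actins differed between the siRNAs, by the interaction test over all 12 libraries. On the log2 scale the difference, Crebl2 siRNA minus Luc siRNA, was 1.128 for Acta1 and 1.272 for Actc1 (edgeR adjusted p = 0.0025 and 0.0029). Both fell less with rapamycin where Crebl2 siRNA had already lowered them, and both calls held under every alternative tried, the replicate block and each left-out library included.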

How the results depend on the processing

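Of 416 values of the actin genes under alternatives, 399 kept their direction and their side of the threshold. Among the named list genes, 3056 of 3163 did, with 69 calls lost, 38 gained and 0 called values reversed. List counts moved by over 1.5 times mostly where they were small. Among larger ones, nucleation genes higher with Crebl2 siRNA in ethanol numbered 11, with 6 as the lowest, and SRF targets positive in the interaction 3, with 8 as the highest. The Actb difference between rapamycin and ethanol with Crebl2 siRNA changed sign when only the compared groups were fitted (0.003) and over left-out libraries (-0.084 to 0.019). The Acta1 value of that comparison ranged from -0.422 to -0.267 over left-out libraries, with its call lost at -0.283, -0.267 and -0.295. The Actb value of rapamycin with Luc siRNA ranged from 0.058 to 0.174 and was called at 0.174. The Acta2 interaction became called with library totals (0.276), no count filter (0.314), a minimum count of 50 (0.268), transcripts tested one by one (0.319), protein-coding genes only (0.263) and DESeq2 (0.281), with edgeR or DESeq2 adjusted p from 0.003 to 0.048, and ranged from 0.219 to 0.329 over left-out libraries, called without replicate 2 of Luc siRNA in rapamycin and without replicates 1 or 2 of Crebl2 siRNA in rapamycin. Genes called in the interaction numbered 159, against 415 with no filter, 391 with DESeq2, 91 with the replicate block and 85 to 172 over left-out libraries; the lowest counts came without replicate 3 of Crebl2 siRNA in rapamycin (85), replicate 3 of Luc siRNA in rapamycin (88), replicate 2 of Luc siRNA in ethanol (94) and replicate 1 of Crebl2 siRNA in ethanol (102). The causes were not tested.

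Shares of the summed actin level moved with the length used. Per annotated exonic length, in the order Luc siRNA in ethanol, Luc siRNA in rapamycin, Crebl2 siRNA in ethanol and Crebl2 siRNA in rapamycin, Acta1 was 8.07%, 2.29%, 0.913% and 0.466%, Actc1 2.0%, 0.363%, 0.157% and 0.0565%, Acta2 63.0%, 74.1%, 69.8% and 80.8%, and Actb 26.9%, 23.3%, 29.2% and 18.7%. With no length, Acta2 was 65.9%, 75.6%, 71.2% and 81.8% and Actb 26.6%, 22.4%, 28.1% and 17.8%, and with Crebl2 siRNA in ethanol Acta1 was 0.661% and Actc1 0.116%.

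Deviations from the group mean were correlated between libraries of different groups. Same-numbered libraries had a median r of -0.1405 over 18 pairs (-0.597 to 0.388). The 36 other pairs had a median of 0.091 (-0.547 to 0.743). With only 3 libraries per group, these values cannot decide whether the numbers pair the libraries. Whether libraries of different number shared a batch was not tested. Adding the replicate block left every actin call as reported. It ended the calls of the Ccn1 and Cnn2 interactions (edgeR adjusted p = 0.063 and 0.12) and of Ccn1 with Crebl2 siRNA in rapamycin (0.051). It also ended those of Tead4 with Crebl2 siRNA in ethanol (0.053) and of Cct2 with rapamycin and Luc siRNA (0.057). Actg2 could be tested only without a filter and was not called (edgeR adjusted p from 0.31 to 0.96). Actg1 and Actg2 are limited by their countable bases, and Actc1 with both treatments by its 110 to 133 reads.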
